A study of Mus musculus with 20 samples.

Results

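The genes described here are 10 that encode receptors and signaling proteins by which microglia take up coated or damaged material: the Fcγ receptors Fcgr1, Fcgr2b, Fcgr3 and Fcgr4, the shared signaling chain Fcer1g, the kinase Syk, the adaptor Lat2, the receptor tyrosine kinase Mertk and the scavenger receptors Cd36 and Msr1. They were taken by symbol from the deposited expression table, and all 10 were found among its 24062 genes. RNA had been sequenced from magnetically selected microglia of male mice, 1 whole brain per sample, with 6 mThy1-α-synuclein mice (labelled mThy1-Asyn, genotype HEM, called transgenic from here on) and 4 wild-type littermates (labelled wildtype, genotype WT) at 7 months and with 5 mice of each genotype at 10 months. All mice had the B6D2F1/J background and no group received a treatment. The mThy1-α-synuclein mice carry human α-synuclein under the Thy-1 promoter, inserted on the X chromosome. This promoter is used to express transgenes in neurons, and which cells made the α-synuclein in these brains was not measured here. The methods of the study name CD11b beads for the selection, whereas the labels name IBA1. Mice of each age, of both genotypes, were processed together, and values of the ages were normalized separately, so levels at 7 and 10 months are given side by side and age itself was not tested.

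Fcγ receptors bind the constant part of IgG on coated particles. Fcgr1, Fcgr3 and Fcgr4 pass the signal through the paired tyrosines (the ITAM) of the Fcer1g chain, which Src family kinases phosphorylate and to which Syk then binds, while Fcgr2b carries an inhibitory motif that recruits phosphatases. Lat2 (also called NTAL or LAB) is a membrane adaptor phosphorylated after Syk activation, Mertk recognises apoptotic cells through the bridging proteins Gas6 and protein S, and Cd36 and Msr1 bind oxidised lipids and other polyanionic ligands.

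Values are normalized counts, that is gene counts divided by a size factor for each mouse. Between 33404096 and 77806399 reads per mouse had been counted on genes, and the median correlation of a mouse with the others of its group was at least 0.970 over all genes. Thy1, whose regulatory sequence drives the transgene, averaged 919 ± 337 normalized counts in transgenic and 39.2 ± 14.4 in wild-type mice at 7 months. At 10 months the averages were 1423 ± 263 and 17.4 ± 8.80, and the genotypes did not overlap at either age. The label microglia matched the markers: P2ry12 lay between 203983 and 384337 normalized counts in every mouse, against 524 to 3916 for the monocyte gene Ly6c2. S100a8, a neutrophil gene, was however present at 11350.0 to 105141 normalized counts. Errors of group means are SDs between mice, with n = 6 and 4 at 7 months and n = 5 and 5 at 10 months. A gene was tested with limma's moderated test on log2(normalized count + 1), provided that 4 or more mice at 7 months, or 5 or more at 10 months, had a value of at least 10, and its p was adjusted by the Benjamini-Hochberg method over all genes tested. A gene with an adjusted p under 0.05 is said to have passed the test, and fold changes are transgenic over wild-type on the log2(normalized count + 1) scale.

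Of the 10 genes, 2 were higher in transgenic mice at 7 months (Mertk and Fcgr1) and 3 differed at 10 months (Lat2 was higher, Syk and Fcgr3 were lower). Among all genes tested, 4.93% passed the test at 7 months (2.23% higher and 2.7% lower) and 7.67% at 10 months (3.88% higher and 3.79% lower), and the median log2 fold change was 0.0009 and -0.0026. The genotypes did not overlap for 2 of the 10 genes at 7 months and for 3 at 10 months, against 7.53% and 7.27% of all genes tested. An unadjusted p under 0.05 was reached by 21.3% and 23.5% of all genes. The median over the 10 genes was 0.10 at 7 months, with 7 above 0, and -0.25 at 10 months, with 7 below 0. No gene of the 10 passed at both ages. In RNA of a sorted fraction, fewer cells of a type and less RNA per cell cannot be told apart.

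The promoters of 4 genes that passed a test are shown to give the sequence around their starts, with the letters of 2 motifs known from myeloid genes. RefSeq promoters (GRCm38.p6, 250 bases before to 50 bases after the start, written 5′ to 3′ on the gene's strand) were given for 8 of the 10 genes, as 10 promoters. Capitals mark GAGGAA on either strand, the core letters recognised by the myeloid factor PU.1, and in Fcgr1 also TTCNNNGAA, the interferon-γ activated sequence (GAS). Fcgr1 is from chr3:96293920-96294219 on the minus strand, Fcgr3 from chr1:171059345-171059644 on the minus strand, Syk (at the second of its listed starts) from chr13:52596632-52596931 on the plus strand, and Mertk, which has neither motif in this window, from chr2:128698665-128698964 on the plus strand.
Fcgr1: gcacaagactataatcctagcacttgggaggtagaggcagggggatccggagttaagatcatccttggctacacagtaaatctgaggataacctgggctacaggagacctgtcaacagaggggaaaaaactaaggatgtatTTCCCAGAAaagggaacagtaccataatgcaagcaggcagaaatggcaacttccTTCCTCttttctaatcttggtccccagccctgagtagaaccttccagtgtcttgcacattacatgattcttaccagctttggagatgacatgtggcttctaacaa
Fcgr3: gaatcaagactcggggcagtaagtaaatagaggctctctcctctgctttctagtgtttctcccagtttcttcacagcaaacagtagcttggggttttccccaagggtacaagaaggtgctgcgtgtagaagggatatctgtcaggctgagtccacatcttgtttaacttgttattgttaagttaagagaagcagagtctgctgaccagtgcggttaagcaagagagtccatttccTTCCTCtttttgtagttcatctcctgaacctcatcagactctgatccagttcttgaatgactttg
Syk: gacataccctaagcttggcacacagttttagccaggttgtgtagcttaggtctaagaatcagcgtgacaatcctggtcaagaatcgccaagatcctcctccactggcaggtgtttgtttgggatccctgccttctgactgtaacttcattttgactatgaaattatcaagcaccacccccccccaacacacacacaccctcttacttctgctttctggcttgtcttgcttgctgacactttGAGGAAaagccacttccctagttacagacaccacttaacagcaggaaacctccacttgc
Mertk: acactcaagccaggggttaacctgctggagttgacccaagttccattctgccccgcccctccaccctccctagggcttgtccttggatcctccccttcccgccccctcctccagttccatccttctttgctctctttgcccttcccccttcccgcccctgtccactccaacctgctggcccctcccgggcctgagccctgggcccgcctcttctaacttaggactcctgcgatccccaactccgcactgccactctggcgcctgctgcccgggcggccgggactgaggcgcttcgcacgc
The GAGGAA core was present in 5 of the 10 promoters, with its first base at position -55 from the start in Fcgr1, -15 or -6 in Fcgr3 (at its 2 listed starts), -22 in Fcgr4 and -9 in Syk. It occurs in 28.3% of all 32851 mouse promoters of the same length. The GAS letters were found in Fcgr1 alone, at position -109, and in 8.3% of all promoters. The windows of Fcgr2b, Fcer1g, Cd36, Mertk and the first Syk start held neither set of letters, and a match is a description of the sequence, not evidence of binding.

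**Figure D1:**
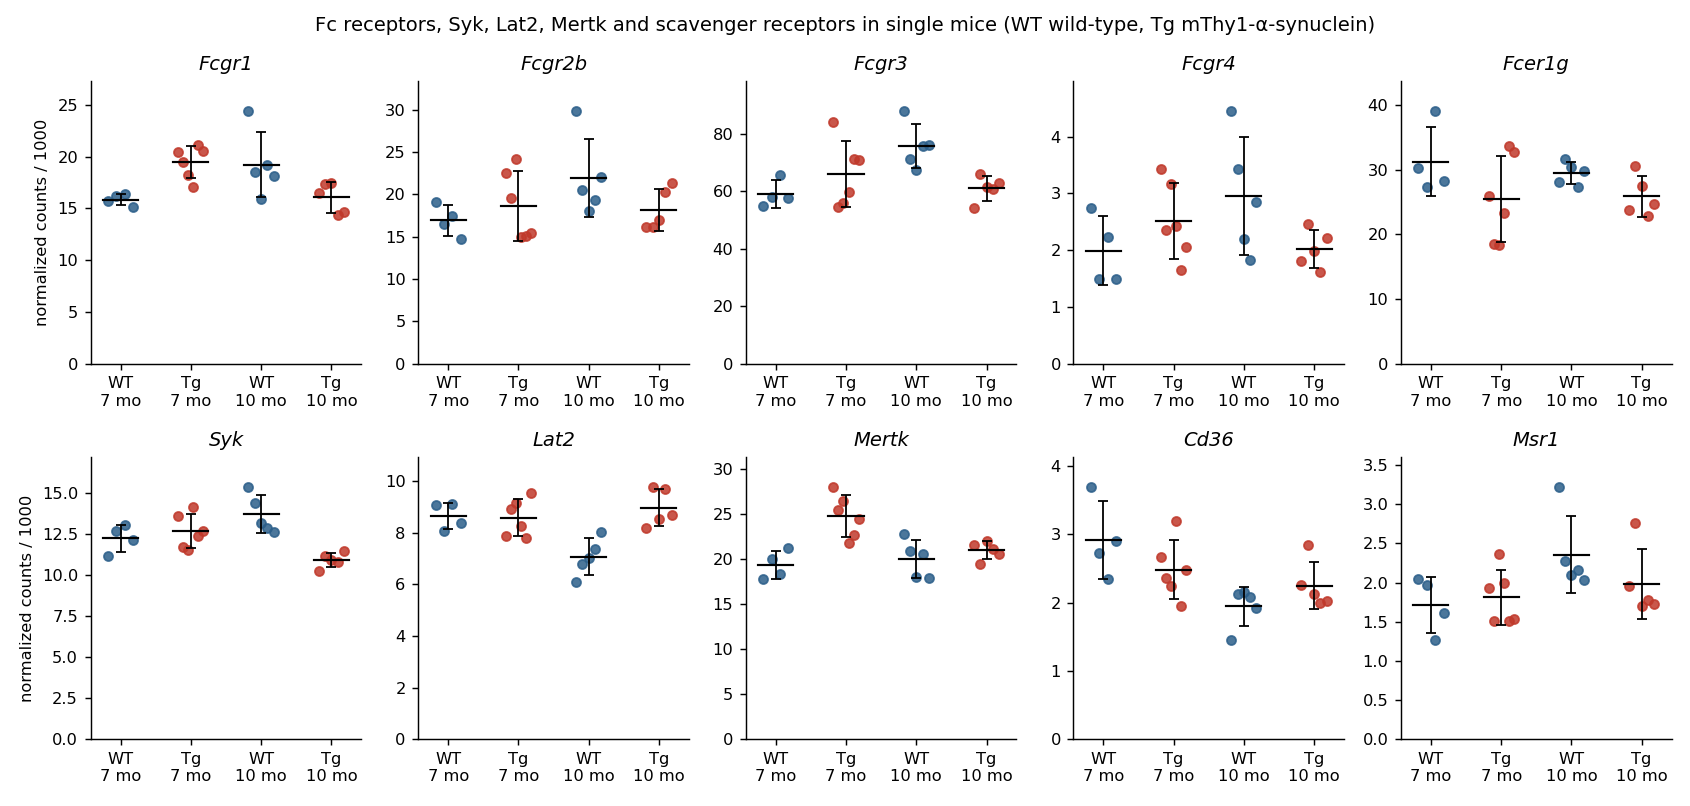
Normalized counts divided by 1000 (vertical axes, from 0) of the 10 genes in every mouse, in wild-type (WT, blue) and transgenic (Tg, red) mice at 7 and 10 months, with the group mean (bar) and SD (error bar). The points of the genotypes are apart for Fcgr1 and Mertk at 7 months and for Fcgr3, Syk and Lat2 at 10 months.

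Levels per kb of exon (normalized counts divided by the summed length of the gene's annotated exons) ordered the genes over a wide range. Fcgr3 and Fcer1g were the most abundant, at 33977 ± 2724 and 35692 ± 6113 normalized counts per kb in wild-type mice at 7 months, and did not differ beyond their spread. Fcgr1 followed at 6123 ± 222 and Mertk at 4463 ± 362 per kb. Lat2 (3298 ± 197) and Fcgr2b (2928 ± 316) came next and overlapped in range, as did Fcgr4 (1585 ± 486) and Syk (1311 ± 87.3). Cd36 had 812 ± 158 and Msr1 271 ± 56.4 normalized counts per kb. At 10 months in wild-type mice the order was the same except that Fcgr3 (43548 ± 4416 per kb) was above Fcer1g (33678 ± 1977) and Fcgr2b (3793 ± 798) above Lat2 (2693 ± 273). The annotated exons of Fcgr2b sum to 5790 bases, so its level per kb depends on the annotation.

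Fcgr1, the high-affinity activating receptor for IgG on chromosome 3 (96282909 to 96293969, minus strand, mm10), was higher in transgenic mice at 7 months. Its normalized counts were 17029 at the lowest, 19969 at the median and 21149.7 at the highest in the 6 transgenic mice, and 15699, 16178, 16420.0 and 15117 in the wild-type mice. Every transgenic mouse was above every wild-type mouse. Transgenic over wild-type, the log2 fold change was 0.29 (standard error 0.073, 95% interval 0.14 to 0.45, limma adjusted p = 0.0301), 1.23-fold. This call sat close to the cutoff: it was lost in 7 of 10 fits that left out 1 mouse, without any 1 of the wild-type replicates 1 to 4 (adjusted p = 0.100, 0.0621, 0.0559 and 0.0763) or of the transgenic replicates 1, 2 and 6 (0.0543, 0.0584 and 0.0592), and in the fit of all 20 mice together (0.0518). Its log2 fold change stayed between 0.27 and 0.33 when any 1 mouse was left out.

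At 10 months Fcgr1 was not higher. Normalized counts were 16511, 17374, 17401, 14329 and 14669.8 in transgenic mice and 24371, 18501, 15938, 19169 and 18112 in wild-type mice. The groups overlapped, with wild-type replicate 1 the highest and wild-type replicate 3 inside the transgenic range. The log2 fold change was -0.25 (95% interval -0.46 to -0.04, adjusted p = 0.144).

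Fcgr3, the most abundant Fcγ receptor per kb and the low-affinity activating one (chromosome 1, 171051174 to 171064935, minus strand), was lower in transgenic mice at 10 months. Its normalized counts were 54242, 66023, 61340.0, 60593 and 62719 in these mice and 87757, 71114, 67423, 75605 and 76097 in wild-type mice. No transgenic mouse reached the lowest wild-type mouse, although replicate 2 (66023) was near wild-type replicate 3 (67423). Transgenic over wild-type, the log2 fold change was -0.31 (standard error 0.078, 95% interval -0.47 to -0.14, limma adjusted p = 0.0298), a fold of 0.808. It missed the cutoff without wild-type replicate 1, 2 or 5 (adjusted p = 0.0601, 0.0509 and 0.0590), without transgenic replicate 1, 3 or 5 (0.0702, 0.0615 and 0.0533) and in the fit of all 20 mice (0.0629).

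At 7 months the Fcgr3 groups overlapped. The 6 transgenic mice ranged from 54562 to 84051 with a median of 65216, and the wild-type mice had 54708, 57907, 65743 and 57576 normalized counts. The log2 fold change of 0.15 had an interval of -0.09 to 0.39 (adjusted p = 0.472).

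Fcgr4, an activating receptor for IgG2a and IgG2b, varied more between mice than any other of the Fcγ receptors and did not pass at either age. It had 1659, 2387 and 3436 normalized counts (lowest, median, highest) in transgenic and 2748, 1500.5, 2224 and 1491 in wild-type mice at 7 months, a log2 fold change of 0.34 (95% interval -0.20 to 0.89, adjusted p = 0.458). At 10 months it had 1806, 2462, 1986, 1617 and 2214 in transgenic and 4444, 3426, 2200.5, 1835 and 2855 in wild-type mice. The genotypes overlapped at both ages, and the 10-month log2 fold change was -0.49 (upper bound of the 95% interval 0.01, adjusted p = 0.223).

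Fcgr2b, the inhibitory receptor, did not pass either. At 10 months its normalized counts were 16093, 16092, 16952, 20321 and 21338 in transgenic and 29794, 20512, 18074, 19354 and 22086 in wild-type mice (a log2 fold change of -0.26, 95% interval -0.54 to 0.01, adjusted p = 0.239). At 7 months it was 14919, 17505 and 24131 (lowest, median, highest) in transgenic mice and 19127, 16498, 17440.4 and 14746 in wild-type mice (0.11, -0.21 to 0.43, adjusted p = 0.699). The 7-month transgenic mice were uneven: replicates 1 to 3 had 22560.1, 19616 and 24131 and replicates 4 to 6 had 14919, 15094 and 15394. The summed neutrophil markers of those mice were 113088, 107390 and 74932 in replicates 1 to 3 and 323266, 504405 and 297678 in replicates 4 to 6, and their part in the Fcgr2b level was not tested.

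Fcgr2b and Fcgr3 are near copies over part of their coding sequence, and how far this affects their counts was not tested. The run below is the longest they share (GENCODE vM21 transcripts on mm10, sense strand), 129 bases from position 278 of the 1020 coding bases of Fcgr2b and position 263 of the 801 of Fcgr3, and capitals mark the identical bases.
Fcgr2b and Fcgr3: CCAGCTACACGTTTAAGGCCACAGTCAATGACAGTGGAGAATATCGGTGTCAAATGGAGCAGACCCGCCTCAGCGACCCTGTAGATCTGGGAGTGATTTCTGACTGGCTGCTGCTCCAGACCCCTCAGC
Of all 30-base windows of the coding sequence, 24% of those in Fcgr2b also occur in Fcgr3 and 30.8% of those in Fcgr3 occur in Fcgr2b, while no other pair among the 4 Fcγ receptors shares such a window. Before trimming, the paired reads of the study were longer than the 129 bases of this run. How reads matching both genes were counted is not given in the sources used here.

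The ratio of an activating receptor to Fcgr2b within a mouse does not depend on the size factor, and it overlapped between the genotypes for all 3 activating receptors at both ages. The log2 ratio of Fcgr4 to Fcgr2b normalized counts was -2.90 ± 0.21 in transgenic and -3.13 ± 0.30 in wild-type mice at 7 months. At 10 months it was -3.18 ± 0.34 in the former and -2.94 ± 0.31 in the latter. That of Fcgr3 to Fcgr2b was 1.84 ± 0.41 and 1.80 ± 0.20 at 7 months and 1.76 ± 0.20 and 1.80 ± 0.15 at 10 months. These ratios were not tested.

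Fcer1g, the ITAM chain through which Fcgr1, Fcgr3 and Fcgr4 signal, was below wild-type on average at both ages without passing the test. At 10 months it had 23790.4, 30547, 27442, 22757 and 24669.8 normalized counts in transgenic and 28028, 31592, 30425, 27379 and 29750.3 in wild-type mice. Only transgenic replicates 2 and 3 reached the wild-type range, and the log2 fold change was -0.19 (95% interval -0.37 to -0.02, adjusted p = 0.161). At 7 months the transgenic mice spread from 18346 to 33582 (median 24675) and the wild-type mice had 30202, 27301, 39002 and 28272 (log2 fold change -0.32, -0.76 to 0.11, adjusted p = 0.374).

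Syk, the kinase that docks on phosphorylated ITAMs (chromosome 13, 52583173 to 52648792, plus strand), was lower in transgenic mice at 10 months. Normalized counts were 10296, 11156, 10945, 10834 and 11505 in transgenic mice and 15389.9, 14429, 13226, 12888 and 12652 in wild-type mice. The transgenic mice were close together and all below the wild-type mice. The log2 fold change was -0.32 (standard error 0.067, 95% interval -0.47 to -0.18, limma adjusted p = 0.0121), a fold of 0.800, and it passed in each of the 10 fits that left out 1 mouse (adjusted p at most 0.0381).

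At 7 months Syk overlapped between the genotypes, with 11548, 12575 and 14151 normalized counts (lowest, median, highest) in transgenic mice and 11180.2, 12711, 13047 and 12141 in wild-type mice. Transgenic over wild-type, the log2 fold change was 0.05 (95% interval -0.11 to 0.21, adjusted p = 0.754).

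Lat2, the adaptor downstream of Syk (chromosome 5, 134600022 to 134615025, minus strand), moved the other way at 10 months. It had 8196, 9763, 8515, 9702 and 8668 normalized counts in transgenic mice and 6090.1, 6791, 7034, 7346 and 8035 in wild-type mice. All transgenic mice were above all wild-type mice, replicate 1 (8196) by little over wild-type replicate 5 (8035). The log2 fold change was 0.35 (standard error 0.080, 95% interval 0.18 to 0.52, limma adjusted p = 0.0200), 1.27-fold, and it missed the cutoff without wild-type replicate 2 (adjusted p = 0.0535). At 7 months Lat2 was 7786, 8577 and 9529 (lowest, median, highest) in transgenic and 9053, 8062, 9103 and 8359 in wild-type mice (a log2 fold change of -0.01, -0.17 to 0.15, adjusted p = 0.945).

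Within a mouse, the log2 ratio of Syk to Lat2 normalized counts set the genotypes apart at 10 months and not at 7 months. It ranged from 0.16 to 0.41 in transgenic and from 0.65 to 1.34 in wild-type mice at 10 months, and from 0.34 to 0.79 and from 0.30 to 0.66 at 7 months. Both genes had passed the test at 10 months, so the ratio restates their difference and was not tested.

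The markers of other blood and border cells were lower in the same 10-month mice in which Fcgr3 and Syk were lower and Lat2 higher. All 13 neutrophil markers had a log2 fold change below 0 at 10 months (3 passed), all 15 monocyte markers (5 passed) and all 13 border macrophage markers (6 passed), while 3 of 15 microglia markers were higher. Of the other lists, 5 of 9 lymphocyte markers and 1 each of the endothelial (of 14), dendritic cell (of 9), neuron (of 13) and dissociation-induced genes (of 14) were lower. Higher were 1 dendritic cell gene (Siglech, also 1 of the 3 microglia markers), 1 of 13 astrocyte genes and 1 neuron gene (Thy1, whose regulatory sequence drives the transgene). Of 9 oligodendrocyte genes 0 passed in limma, edgeR or DESeq2, and 0 had an unadjusted p under 0.05. The summed neutrophil markers ranged from 101827 to 240128 normalized counts in transgenic and from 199370 to 461322 in wild-type mice. The summed monocyte markers ranged from 19741 to 35007 and from 33632 to 69083, and those of border macrophages from 34123 to 42153 and from 44540.0 to 57167, without overlap for the latter. None of these neutrophil, monocyte and border macrophage markers was at 0 in any mouse, and among them S100a9 and S100a8 had the highest medians over the 20 mice. The summed lymphocyte markers were also without overlap, at 557 to 905 in transgenic and 1258 to 2612 in wild-type mice. Those of neurons, Thy1 included, were higher in transgenic mice without overlap (2356 to 2927 against 941 to 1447). The part of neutrophils, monocytes, border macrophages, lymphocytes and neurons in the differences of Fcgr3, Syk and Lat2 was not tested.

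**Figure D2:**
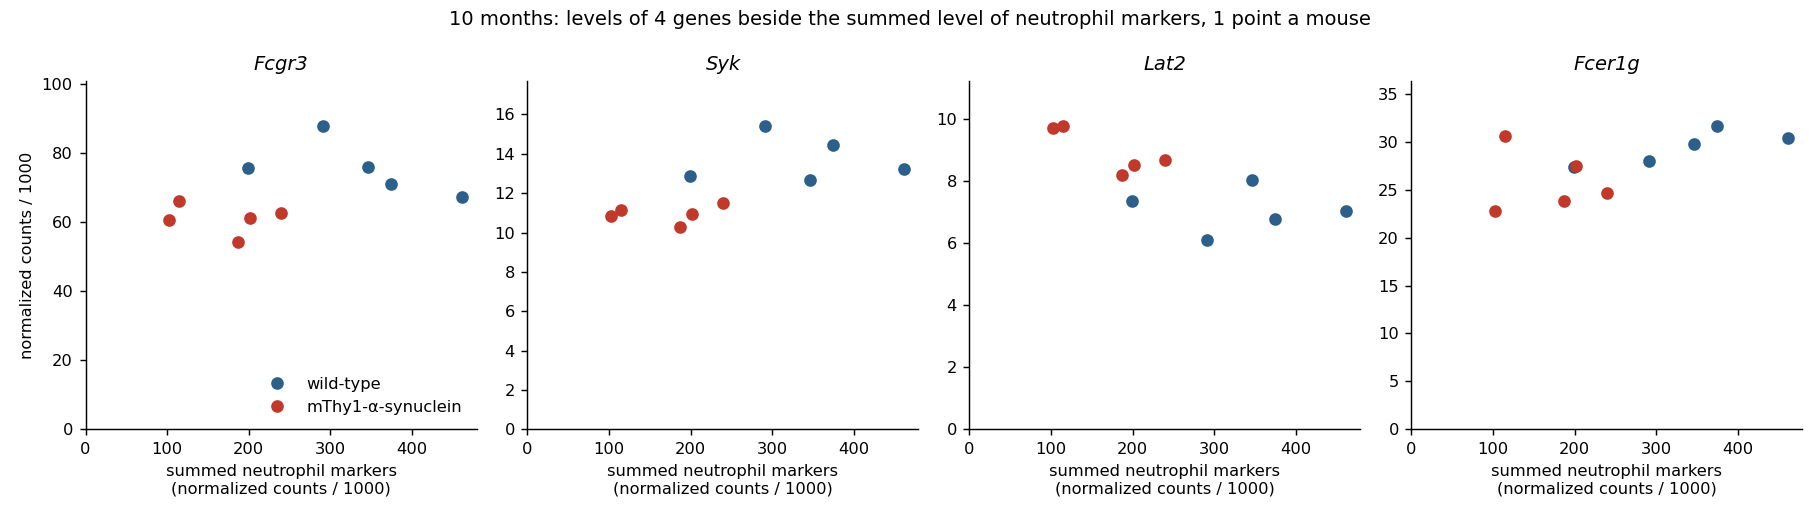
Normalized counts divided by 1000 (vertical axes, from 0) of Fcgr3, Syk, Lat2 and Fcer1g in each 10-month mouse against the summed normalized counts of 13 neutrophil markers, also divided by 1000 (horizontal axes), for wild-type (blue) and transgenic (red) mice. The sums range from 101827 to 240128 in transgenic and from 199370 to 461322 in wild-type mice, so most wild-type points lie to the right of the transgenic ones.

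Mertk, the receptor for uptake of apoptotic cells (chromosome 2, 128698956 to 128802894, plus strand), was higher in transgenic mice at 7 months. Its normalized counts were 27989, 25411 and 26478 in transgenic replicates 1 to 3 and 21759, 22614.5 and 24419 in replicates 4 to 6. Wild-type mice had 17775, 20031, 18374 and 21218. The transgenic mice were uneven as for Fcgr2b, with summed neutrophil markers of 74932 to 113088 in replicates 1 to 3 and 297678 to 504405 in replicates 4 to 6. Wild-type replicate 4 had the lowest sum of its group (106641) and the highest Mertk level. The groups did not overlap, the closest mice being transgenic replicate 4 and wild-type replicate 4. Transgenic over wild-type, the log2 fold change was 0.35 (standard error 0.083, 95% interval 0.18 to 0.53, limma adjusted p = 0.0220), 1.28-fold, and it missed the cutoff without wild-type replicate 1 (adjusted p = 0.101) or 3 (0.0732). At this age 0 of 13 neutrophil, 0 of 15 monocyte and 0 of 13 border macrophage markers passed in limma (0, 5 and 2 at an unadjusted p under 0.05, 0 in edgeR for each, and 0, 0 and 1 in DESeq2). All 15 monocyte markers nevertheless had a log2 fold change below 0 (median -0.70), as did 12 of 13 neutrophil markers (median -0.38) and 7 of 13 border macrophage markers (median -0.01). The summed monocyte markers ranged from 16901 to 57568 normalized counts in transgenic and from 28127 to 59305 in wild-type mice, and the summed neutrophil markers from 74932 to 504405 and from 106641 to 334616. The sums were lower in transgenic mice without overlap for lymphocytes (598 to 1160 against 1558 to 2881), oligodendrocytes (7899 to 10290 against 12858 to 18366) and endothelium (6640 to 7873 against 8352 to 10141). Markers of neurons (7 of 15 lower, Thy1 higher), astrocytes (7 of 13 lower, 1 higher), oligodendrocytes (3 of 11 lower) and lymphocytes (4 of 10 lower) differed, and the part of these other cells, blood cells included, in the calls of Mertk and Fcgr1 was not tested. Of the remaining lists, 1 of 15 microglia markers was higher and 2 of 14 endothelial markers were lower, while 0 of 9 dendritic cell genes and 0 of 14 genes induced by tissue dissociation passed in limma, edgeR or DESeq2 (2 and 3 at an unadjusted p under 0.05).

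At 10 months Mertk had 21607, 19434, 22029.8, 21138 and 20586 normalized counts in transgenic and 22830.2, 20871, 18041, 20579.9 and 17854 in wild-type mice. These overlapped (log2 fold change 0.07, 95% interval -0.09 to 0.23, adjusted p = 0.623).

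Cd36 and Msr1, the scavenger receptors, had low levels and did not pass at either age. Cd36 had 2259, 2851, 2122, 1999 and 2026 normalized counts in transgenic and 1461, 2126, 2156, 2078 and 1923 in wild-type mice at 10 months (log2 fold change 0.21, 95% interval -0.04 to 0.46, adjusted p = 0.310). At 7 months it had 1954, 2417 and 3201 (lowest, median, highest) against 3692, 2728, 2342 and 2903 (-0.23, -0.53 to 0.07, adjusted p = 0.367). The genotypes overlapped at both ages.

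Msr1 had 1953, 2756, 1702, 1776 and 1724 normalized counts in transgenic and 3218, 2269.7, 2102, 2164 and 2031 in wild-type mice at 10 months (log2 fold change -0.25, 95% interval -0.58 to 0.07, adjusted p = 0.339). In each genotype 1 mouse stood above the others, transgenic replicate 2 and wild-type replicate 1. At 7 months it had 1515, 1736 and 2368 (lowest, median, highest) against 2041, 1964, 1264 and 1607 (0.08, -0.26 to 0.42, adjusted p = 0.816).

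**Figure D3:**
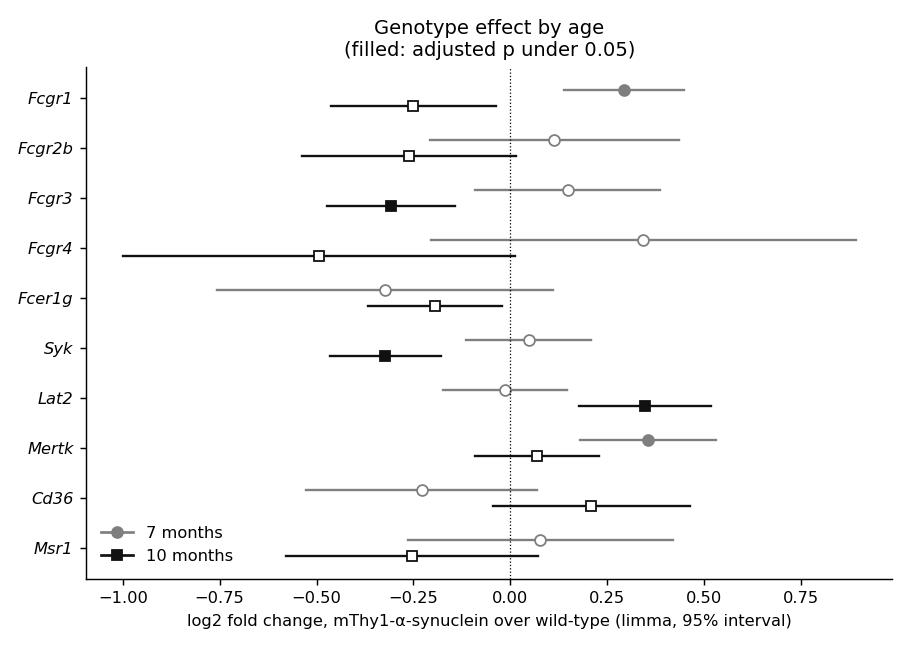
Log2 fold change of each of the 10 genes, transgenic over wild-type, with its 95% interval from limma (horizontal axis) at 7 months (grey circles) and 10 months (black squares), filled where the adjusted p was under 0.05. The filled symbols are Fcgr1 and Mertk at 7 months and Fcgr3, Syk and Lat2 at 10 months.

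Whether the genotype effect differed between the ages was tested as an interaction in 1 fit of all 20 mice, in which 6.36% of 14457 genes passed (3.74% with a higher and 2.62% with a lower effect at 10 months) and 21.9% had an unadjusted p under 0.05. Of the 10 genes, Fcgr1 and Syk passed. The genotype effect on Fcgr1 was 0.54 lower at 10 than at 7 months on the log2 scale (difference -0.54, standard error 0.13, 95% interval -0.81 to -0.28, adjusted p = 0.0130), and it passed without any 1 of the 20 mice. That on Syk was lower by 0.37 (difference -0.37, 95% interval -0.58 to -0.16, adjusted p = 0.0263), which missed the cutoff without wild-type replicate 1 of 10 months (adjusted p = 0.0550) or of 7 months (0.0698). Lat2 (0.36, 95% interval 0.13 to 0.59, adjusted p = 0.0501) and Fcgr3 (-0.46, -0.75 to -0.16, adjusted p = 0.0547) were just outside the cutoff, and DESeq2 on the reads placed both inside it (adjusted p = 0.0294 and 0.0244). For Mertk the difference was -0.28 (-0.52 to -0.05, adjusted p = 0.132), so the passing of Mertk at 7 months alone was not shown to be a difference between the ages.

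Around these 10 genes, 7 lists of genes with related roles were described: other Fc receptors, Src and Tec family kinases, adaptors and enzymes after Syk, inhibitory receptors and phosphatases, other ITAM receptors, scavenger receptors, and genes of the TAM receptors (Tyro3, Axl and Mertk) and of the uptake of apoptotic cells. Without the 10 genes themselves, 9 of the 148 list genes tested passed at 7 months, 6 of them higher and 3 lower, beside 4.93% of all genes. At 10 months 26 of 145 passed, 9 higher and 17 lower, beside 7.67% of all genes. The count at 7 months moved between 4 (without wild-type replicate 1 or 2) and 15 (without transgenic replicate 4) when 1 mouse was left out, and was also low without wild-type replicate 3, at 5. That at 10 months moved between 12 (without wild-type replicate 3) and 33 (without wild-type replicate 4), and was between 13 and 17 without any 1 of wild-type replicates 1, 2 and 5 or transgenic replicates 1, 2, 3 and 5.

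**Figure D4:**
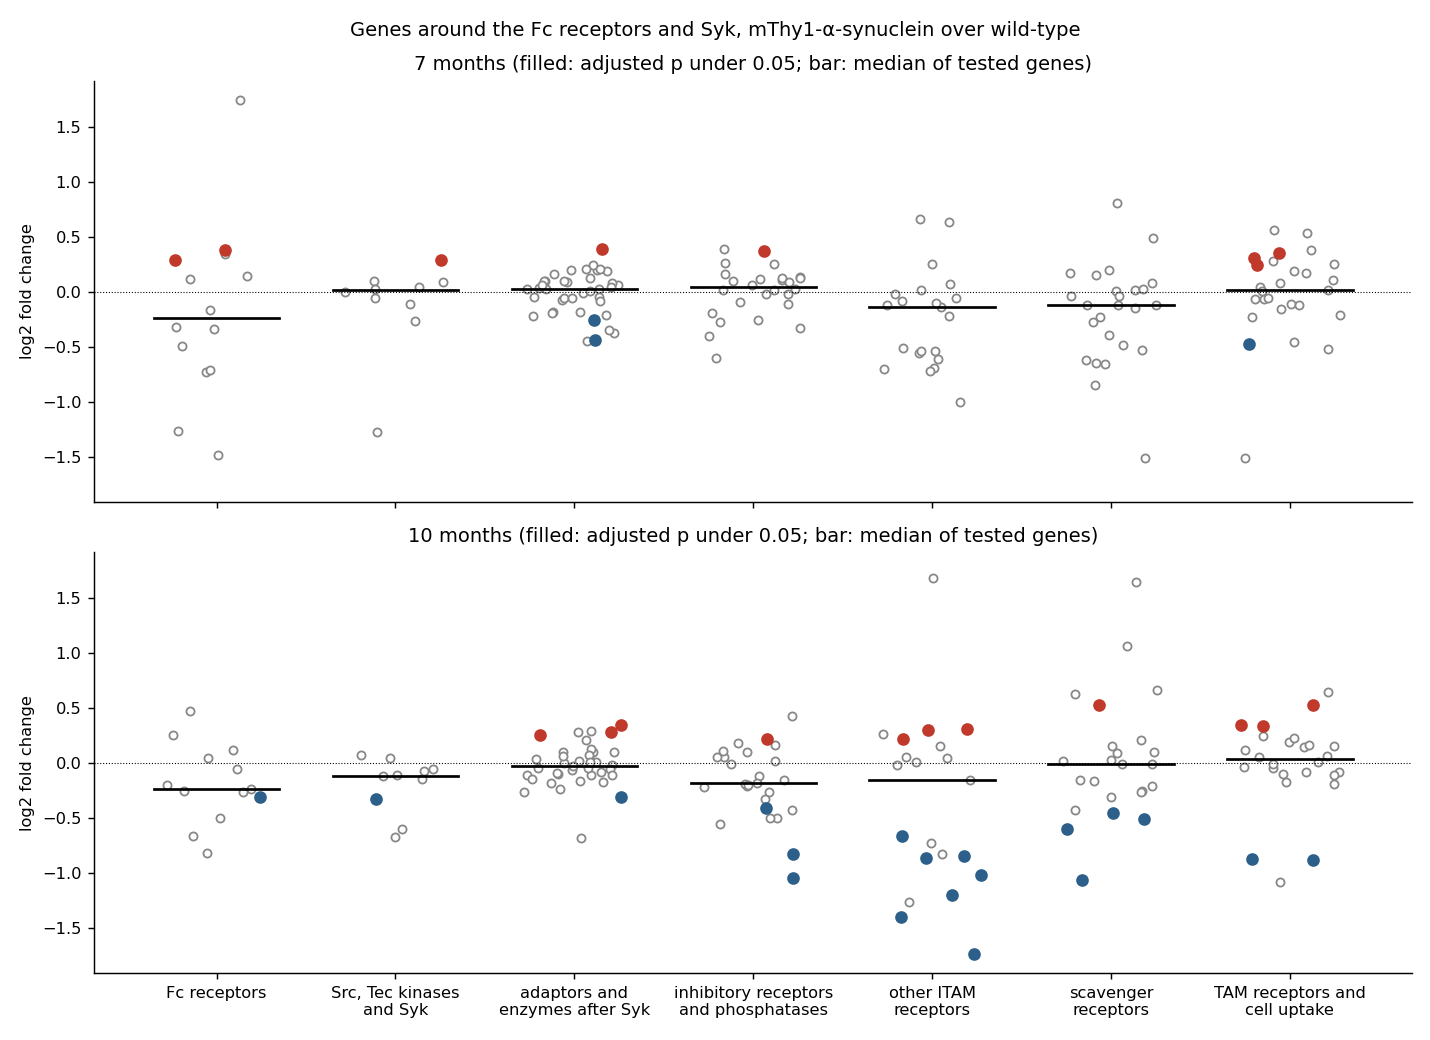
Log2 fold change (vertical axes) of every tested gene in the 7 lists, members included, at 7 months (top) and 10 months (bottom), filled red (higher) or blue (lower) where the adjusted p was under 0.05, with a bar at the median of each list. The other ITAM receptors hold no filled point at 7 months and 7 blue and 3 red points at 10 months.

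Among the genes of signaling from the receptor at 7 months, Lyn, the Src family kinase that phosphorylates ITAMs and inhibitory motifs in myeloid cells, had a log2 fold change of 0.29 (adjusted p = 0.0158). Its normalized counts were between 38224 and 42833 in transgenic and between 32460 and 34513 in wild-type mice, without overlap, and it missed the cutoff only without wild-type replicate 2 (adjusted p = 0.0559). In the list of Src and Tec kinases, 1 of 10 tested genes passed at 7 months (Lyn) and 1 of 10 at 10 months (Syk). Lyn had a log2 fold change of -0.12 at 10 months (adjusted p = 0.276), and its interaction passed (difference -0.41, adjusted p = 0.00543).

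Of 39 tested adaptors and enzymes after Syk, 3 passed at 7 months. Blnk, an adaptor phosphorylated by Syk, was higher (log2 fold change 0.39, adjusted p = 0.0256), whereas Gab2, a docking protein for the phosphatase Shp2 and for PI 3-kinase, was lower (-0.44, adjusted p = 0.0135), as was the actin-nucleation subunit Arpc1b (-0.25, adjusted p = 0.0488). Blnk missed the cutoff in 4 of 10 fits without 1 mouse (adjusted p up to 0.114, without wild-type replicate 1), Gab2 without wild-type replicate 3 (0.0506) and Arpc1b in 9 of 10 (up to 0.149, without wild-type replicate 3). At 10 months 4 of 38 passed: Lat2, the actin regulator Wasf2 (0.28, adjusted p = 0.0325) and the Rac activator Dock2 (0.26, adjusted p = 0.0360) were higher and the kinase Pak1 was lower (-0.31, adjusted p = 0.0432). These last 3 were close to the cutoff: Wasf2 was lost in 7 of 10 fits without 1 mouse (adjusted p up to 0.0843, without transgenic replicate 3), Dock2 in 7 (up to 0.0830, without transgenic replicate 1) and Pak1 in 9 (up to 0.0991, without transgenic replicate 3).

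Among inhibitory receptors and phosphatases, Pag1, the membrane adaptor that brings the kinase Csk to Src family kinases, was higher at 7 months and was the only one of the 9 list calls at that age to pass without any 1 mouse. Its normalized counts were between 34367 and 38163 in transgenic and between 25888 and 31054 in wild-type mice (a log2 fold change of 0.37, adjusted p = 0.00645). At 10 months 3 of 26 were lower and 1 was higher. Cd300a, an inhibitory receptor that binds lipids of dying cells, had 5093, 5724, 5326, 6428 and 6332 normalized counts in transgenic and 7838, 6991, 6926, 7602 and 8996 in wild-type mice, without overlap (log2 fold change -0.41, adjusted p = 0.0135). Its interaction also passed (difference -0.50, adjusted p = 0.0186). Pirb (-0.82, adjusted p = 0.0160) and Cd300lf (-1.05, adjusted p = 0.0263) were lower, and Lair1, an inhibitory collagen receptor, was higher (0.22, adjusted p = 0.0485). Cd300a and Pirb passed without any 1 mouse, Cd300lf was lost in 5 of 10 such fits (adjusted p up to 0.0624, without wild-type replicate 2) and Lair1 in 8 (up to 0.120, without wild-type replicate 3). Pirb belongs to a family of closely similar genes with Lilra6 and Pira2, and how far the counts of these genes can be told apart was not tested.

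The other ITAM-coupled receptors, which use Fcer1g or the related chain Tyrobp, or carry an ITAM-like motif of their own, had the most calls at 10 months: 10 of 21 tested passed, 7 lower and 3 higher, and 0 of the 21 passed at 7 months in limma, where 5 had an unadjusted p under 0.05 and edgeR called 0 and DESeq2 2. Clec4e (Mincle), a receptor for glycolipids and dead cells that signals through Fcer1g, had 790.0, 725, 1052, 509.5 and 1167 normalized counts in transgenic and 2942, 2576, 2182, 1249 and 2224 in wild-type mice. Every transgenic mouse was below every wild-type mouse, and the log2 fold change was -1.40 (standard error 0.28, adjusted p = 0.0185). Its partner Clec4d changed by -1.74 (adjusted p = 0.0169) and the activating receptor Cd300lb by -1.01 (adjusted p = 0.0103), and all 3 passed without any 1 mouse, but Clec4e missed the cutoff in 1 fit of all 20 mice (adjusted p = 0.0643).

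Further members of this list were lower at 10 months but were lost without some mice: Clec4n (Dectin-2; log2 fold change -0.87, adjusted p = 0.0225), Trem1 (-1.20, 0.0367) and Lilra6 (-0.84, 0.0400). Clec4n was lost in 3 of 10 fits (adjusted p up to 0.0579, without wild-type replicate 5), Trem1 in 8 (up to 0.0816) and Lilra6 in 9 (up to 0.0871), both highest without wild-type replicate 1. Siglech (0.31, adjusted p = 0.0398) and Itgam (0.22, adjusted p = 0.0408) were higher, and were lost in 8 fits (up to 0.0974, without wild-type replicate 2) and 9 fits (up to 0.0924, without transgenic replicate 1). Itgam encodes CD11b, the target of the beads named in the study's methods. The remaining 2 calls, Itgax (0.31) and Pira2 (-0.66), fell outside the naming rule and are named here after their values were seen.

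The levels of some of these receptors were uneven within the 7-month transgenic group in the same mice as the neutrophil markers. Clec4e was 441, 379 and 650.5 normalized counts in replicates 1 to 3, and 1871, 1709.5 and 1152 in replicates 4 to 6. Trem1 was 572, 404 and 456 in the former and 2010.0, 1968 and 1412 in the latter. Cd300lf was 484, 313 and 585 in the former and 1019, 959 and 639 in the latter, and Cd300lb 670, 470 and 641 and 1358, 1009 and 925. The summed neutrophil markers were 74932 to 113088 in the former and 297678 to 504405 in the latter. The lectin Clec4n ran the other way, with 347, 266 and 501 in the former and 204, 194 and 227 in the latter. At 10 months Clec4e in wild-type replicate 4 (1249), the wild-type mouse with the lowest sum, was just above the highest transgenic mouse (1167). The part of neutrophils and monocytes in the 10-month change of these receptors was not tested.

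Among the other scavenger receptors, 5 of the 22 tested passed at 10 months and 0 of 23 at 7 months in limma, where 4 had an unadjusted p under 0.05 and edgeR called 0 and DESeq2 1. Cd14, the lipopolysaccharide co-receptor, had 9426, 9468, 9094, 11146 and 13003 normalized counts in transgenic and 17105, 17828, 14169, 13639 and 15862 in wild-type mice at 10 months. The groups did not overlap (log2 fold change -0.60 with a standard error of 0.10, adjusted p = 0.00549). Lrp1, an endocytic receptor for apolipoprotein E and many other ligands, was higher instead, with 67053, 52148, 61314, 47724 and 57709 against 39763, 45488, 38611, 40752 and 33359 (log2 fold change 0.53 with a standard error of 0.098, adjusted p = 0.00713). The mannose receptor Mrc1 was lower (-0.45, adjusted p = 0.0151), and these 3 passed without any 1 mouse, but Mrc1 missed the cutoff in 1 fit of all 20 mice (adjusted p = 0.0598). Cd44 (-1.07, adjusted p = 0.0298) was lower too and was lost in 7 of 10 such fits (up to 0.0665, without wild-type replicate 2). In 7-month transgenic mice Cd44 had 2600, 2686 and 3194 normalized counts in replicates 1 to 3 and 7899, 6363 and 4707 in replicates 4 to 6. The summed neutrophil markers were also higher in the latter, and their part in the Cd44 level was not tested. Mrc1 is also a marker of border macrophages, whose list was lower at 10 months. The part of other blood and border cells in the 10-month calls of Cd14, Lrp1, Mrc1 and Cd44 was not tested.

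In the list of TAM receptors and uptake of apoptotic cells, the ligands of Mertk moved in opposite directions at 7 months. Pros1, which encodes protein S, had 41637 to 45688 normalized counts in transgenic and 35418 to 38512 in wild-type mice (a log2 fold change of 0.25, adjusted p = 0.0343). Gas6, the other ligand, had 6834 to 10067 against 10473 to 13032 (-0.47, adjusted p = 0.0162). Adam17, the protease that sheds Mertk from the cell surface, was higher, with 19141 to 22487 against 15908 to 17901 (0.31, adjusted p = 0.0148). None of these 3 overlapped between the genotypes. Pros1 was lost in 8 of 10 fits without 1 mouse (up to 0.0996) and Adam17 in 2 (up to 0.0548), both highest without wild-type replicate 2, and Gas6 without wild-type replicate 3 (0.0668).

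At 10 months none of Pros1 (0.01, adjusted p = 0.926), Gas6 (-0.08, 0.754) and Adam17 (-0.03, 0.826) passed, and the interaction passed for Adam17 only (difference -0.34, adjusted p = 0.0243). The calls of this list at 10 months were Cd93, a receptor on monocytes and endothelium (log2 fold change -0.87, adjusted p = 0.00233), Timd4, a phosphatidylserine receptor (-0.88, 0.0136), Elmo1, a partner of Dock proteins in engulfment (0.35, 0.0161), the lipid exporter Abca1 (0.34, 0.0415) and Lrp1. Cd93, Timd4 and Elmo1 passed without any 1 mouse, and Abca1 was lost in 7 of 10 such fits (up to 0.0980, without transgenic replicate 3). Timd4 was low, with 103 to 168 normalized counts in transgenic and 185 to 303 in wild-type mice. Monocyte and border macrophage markers were lower in the same mice, and their part in the calls of Cd93 and Timd4 was not tested. The Fc receptor list held 1 further call, the cytosolic IgG receptor Trim21 at 7 months (0.38, adjusted p = 0.0195, lost without wild-type replicate 1 at 0.0694).

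**Figure D5:**
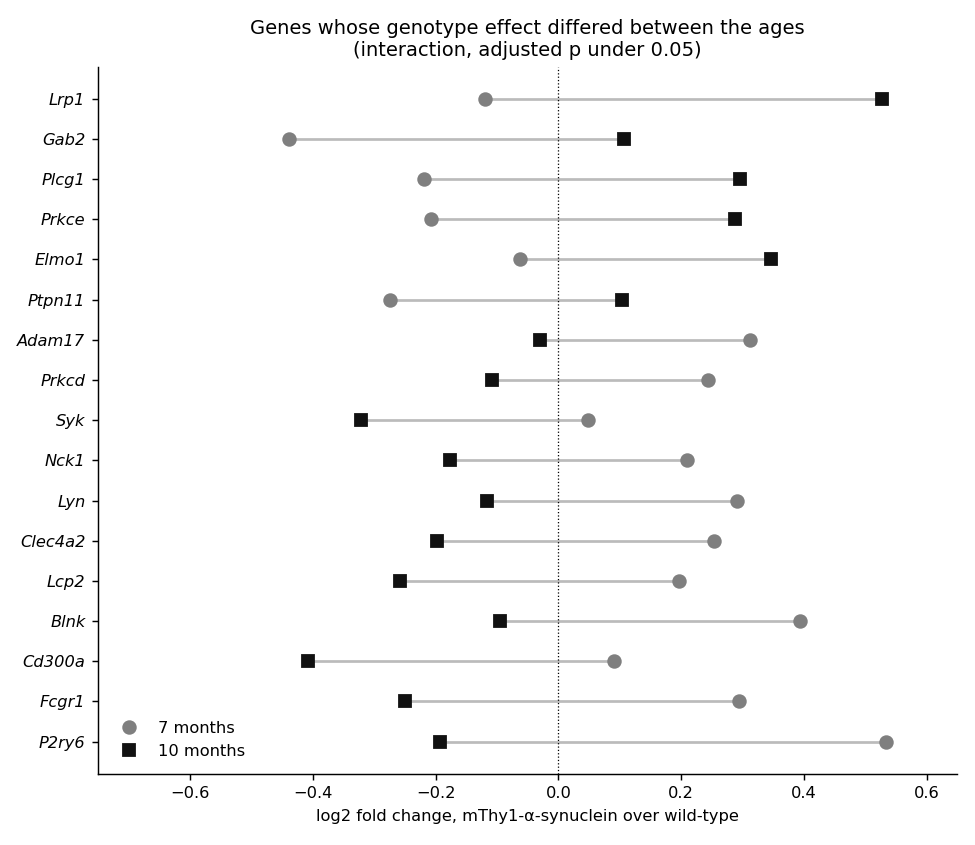
Log2 fold change, transgenic over wild-type (horizontal axis), at 7 months (grey circles) and 10 months (black squares) for the 17 genes of the members and lists whose interaction passed (adjusted p under 0.05). For Fcgr1, Syk, Lyn, Blnk, Lcp2, Prkcd, Nck1, Cd300a, Clec4a2, Adam17 and P2ry6 the circle is to the right of 0 and the square to the left. For Gab2, Plcg1, Prkce, Ptpn11, Lrp1 and Elmo1 the order is turned around.

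Besides Fcgr1 and Syk, the interaction passed for 15 of the 153 list genes tested, against 6.36% of all genes tested. In 9 of the 15 the genotype effect was lower at 10 than at 7 months, among them Lyn, Blnk, the adaptor Lcp2 (SLP-76; difference -0.45, adjusted p = 0.0321), the adaptor Nck1 (-0.39, 0.0257) and the kinase Prkcd (-0.35, 0.0250). In 6 it was higher, among them Gab2 (0.55, adjusted p = 0.00736), the phospholipase Plcg1 (0.52, 0.0176) and the kinase Prkce (0.49, 0.0107). Lyn, Gab2, Blnk, Prkcd, Prkce and Plcg1 passed without any 1 of the 20 mice, whereas Lcp2 was lost in 4 such fits (up to 0.0724, without wild-type replicate 4 of 7 months) and Nck1 in 2 (up to 0.0567, without wild-type replicate 3 of 7 months).

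On chromosome 1, Fcgr2b, Fcgr4, Fcgr3 and Fcer1g lie within 275749 bases (170958617 to 171234365). The other tested genes between them did not pass at either age: Sdhc had a log2 fold change of -0.15 at 7 and -0.11 at 10 months (adjusted p = 0.393 and 0.391), Pcp4l1 -0.35 and -0.24 (0.455 and 0.664) and Tomm40l -0.35 and -0.18 (0.135 and 0.384). Beside Mertk, its next tested neighbor Tmem87b was higher at 7 months (0.41, adjusted p = 0.0427), as Mertk was. Beside Cd36, Sema3c was higher at 10 months (adjusted p = 0.0364), where Cd36 did not pass.

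After subtraction of group means, the genes varied between mice in different company. Among pairs of the 10 genes over 20 mice, Pearson's r of log2 normalized counts was highest for Fcgr2b with Fcgr4 (0.70), then for Fcgr3 with Fcer1g (0.62), Fcgr1 with Fcgr3 (0.58) and Fcgr3 with Syk (0.57), and it was -0.49 for Syk with Lat2. The gene outside the 10 with the highest r was Gm19522 for Fcgr1 (0.84), Sec61a1 for Fcgr2b (0.92), Srcrb4d for Fcgr3 (0.76), Cd38 for Fcgr4 (0.89) and Lefty1 for Fcer1g (0.87). It was Stat6 for Syk (0.84), Aif1 for Lat2 (0.87), Ifnar1 for Mertk (0.86), Gm4013 for Cd36 (0.79) and Naip2 for Msr1 (0.82). All values of a mouse share its library and size factor, and each of these 10 was the highest over all other genes tested, so they are descriptions only.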

How the data were processed

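RNA-seq data of magnetically selected microglia from 20 male mice were used. Per the labels and the methods of the study, the authors trimmed paired-end reads with Trim Galore 0.6.7, mapped them to mm10 with HISAT2 2.2.1, counted them per gene with featureCounts and normalized with DESeq2 1.44.0. The deposited values are a depth-normalized signal, made by the authors by dividing gene counts by 1 size factor per mouse. These factors equalled DESeq2 size factors recomputed within each age. The strand setting, annotation release and handling of multi-mapping reads are not given in the sources used here. Dividing by the step of each mouse recovered whole reads (100% of values within 0.01 of a whole number), except that the step of 1 mouse (10-month mThy1-α-synuclein replicate 5) was too near 1 for this to be tested. The 20 tables of single mice were identical to the joint table.

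Genotypes were compared within each age with limma 3.58.1 (moderated test, trend and robust) on log2(value + 1), and the effects of the ages were compared in 1 fit of 4 groups and 20 mice, for genes with at least 10 in at least 4 mice at 7 months, 5 mice at 10 months or 4 of 20 mice. Tests were two-sided, with Benjamini-Hochberg adjustment over all genes tested and a cutoff of 0.05. The filter left 13887, 13627 and 14457 genes. The scripts were tested on simulated data. Alternatives were edgeR 4.0.16 and DESeq2 1.42.0 on the recovered reads, TMM scaling, limma-voom with quality weights, pseudocounts of 0.5 and 5, no filter or a minimum of 50, the replicate number as a block, 1 fit of all 20 mice for each age, and leaving out each mouse. R 4.3.3, Python 3.11.15, pandas 2.3.3 and matplotlib 3.10.9 were used. Gene positions are on mm10 (GENCODE vM21).

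The 10 genes, the 7 lists of related genes and the 11 lists of cell markers were chosen with earlier results of these data known. Named are the 10 genes, up to 8 genes per list and age by smallest p among those that passed, every list gene whose interaction passed, 12 defining markers, Thy1, the tested neighbors and, for likeness, the 2 genes per member with the highest correlation (the first is given) after subtraction of group means. Results of 2 further genes under this rule are not reported here. Each sample is a different mouse.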

Additional observations from a re-analysis of the deposited data

Results flagged for a closer look

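In 2 of 40 groups of mice a single value of the 10 genes lay further from the others than Dixon's 95% critical value allows, where chance gives about 1 in 20. Msr1 had 2755.6 normalized counts in mThy1-α-synuclein replicate 2 at 10 months and 3218.19 in wild-type replicate 1 at 10 months, each the highest of its group. The gap to the nearest mouse was 0.762 and 0.799 of the group's range.

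The genotype effect differed between the ages, by the limma interaction across all 20 mice, for 17 genes of the members and lists. The differences are the log2 effect at 10 months minus that at 7 months. They were -0.54 for Fcgr1 (adjusted p = 0.0130) and -0.37 for Syk (0.0263). Among list genes they were below 0 for Lyn (-0.41, adjusted p = 0.00543), Blnk (-0.49, 0.0157), Lcp2 (-0.45, 0.0321), Prkcd (-0.35, 0.0250), Nck1 (-0.39, 0.0257), Cd300a (-0.50, 0.0186), Clec4a2 (-0.45, 0.0148), Adam17 (-0.34, 0.0243) and P2ry6 (-0.73, 0.0225). They were above 0 for Gab2 (0.55, adjusted p = 0.00736), Prkce (0.49, 0.0107), Plcg1 (0.52, 0.0176), Ptpn11 (0.38, 0.0346), Lrp1 (0.65, 0.0488) and Elmo1 (0.41, 0.0123). Lrp1 was lost in 15 of 20 fits without 1 mouse (limma adjusted p up to 0.0934) and Ptpn11 in 8 (up to 0.0837). P2ry6 was lost in 2 (up to 0.0511) and Adam17 in 1 (0.0557). Per the methods of the study, mice were handled by age up to nucleic acid isolation and all libraries were sequenced in 1 run, so that handling and age cannot be told apart.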

How the results depend on the processing

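The direction of the 5 calls among the 10 genes was the same under each of the 10 alternatives and without any 1 mouse. Under edgeR, TMM scaling, DESeq2, limma-voom with quality weights, both pseudocounts and both filters, Fcgr1 and Mertk passed at 7 months and Fcgr3, Syk and Lat2 at 10 months. In 1 fit of all 20 mice only Mertk passed at 7 months (1 of the 10 genes) and 17 list genes in place of 9. At 10 months that fit called 19 list genes in place of 26, and it lost Fcgr3 (adjusted p = 0.0629), Clec4e (0.0643), Mrc1 (0.0598), Trem1 (0.145), Lilra6 (0.0764), Cd300lf (0.0525), Lair1 (0.0510), Itgam (0.0531) and Abca1 (0.170). DESeq2 called 16 list genes at 7 months and 4 of the 10 genes in the interaction (Fcgr1, Fcgr3, Syk and Lat2, in place of 2). Over all genes DESeq2 called 1158 at 7 and 1694 at 10 months against 684 and 1045. Without 1 mouse, the number of the 10 genes called ranged from 0 to 2 at 7 months, from 1 to 3 at 10 months and from 1 to 4 in the interaction. That of list genes ranged from 4 to 15, from 12 to 33 and from 11 to 18, and that of all genes from 280 to 860, 489 to 1232 and 618 to 1097.

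The replicate numbers do not pair the mice: same-numbered mice of an age had correlations of deviations from -0.134 to 0.0995, and in 0 of 9 pairs was the same number the best partner. With the replicate block, 1 of the 10 genes passed at 7 months (Fcgr4), 2 at 10 months (Syk and Lat2, with Fcgr3 at an adjusted p of 0.0681) and 1 in the interaction (Fcgr4), and 2, 27 and 4 list genes. mThy1-α-synuclein replicates 5 and 6 of 7 months have no partner in that fit.

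Signs changed for log2 fold changes that had not passed: under limma-voom those of Lat2 (0.0223), Msr1 (-0.0150) and Siglech (0.0117) at 7 months and of Pag1 at 10 months (0.0192, and 0.00024 with TMM), and with the replicate block those of Cd14 (0.0701) and Mrc1 (0.0268) at 7 months. Without 1 mouse, the sign changed within these ranges. At 7 months they were -0.0458 to 0.0143 for Lat2, -0.0614 to 0.169 for Msr1, -0.0111 to 0.0668 for Wasf2, -0.0461 to 0.0255 for Siglech, -0.117 to 0.0347 for Cd14, -0.208 to 0.0294 for Lrp1 and -0.0779 to 0.189 for Timd4. At 10 months they were -0.0644 to 0.0507 for Pag1, -0.0601 to 0.00228 for Adam17, -0.172 to 0.0170 for Gas6 and -0.0252 to 0.0604 for Pros1. The cause of these shifts was not tested. Counting noise and variation between mice were not separated.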
